A study of Arabidopsis thaliana with 4 samples.

Results

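Pericentromeric heterochromatin is the compact chromatin that flanks the centromeres. In Arabidopsis thaliana it is poor in genes, rich in transposons and satellite repeats, and marked by DNA methylation and by methylation of histone H3 at lysine 9. The tandem arrays of ribosomal RNA (rRNA) genes, called rDNA, form the nucleolus organizers at the tips of the short arms of chromosomes 2 and 4, and the assembly holds only a few copies of the repeat. RVE5 is a MYB-like factor of the REVEILLE family, whose members act in the circadian clock and are known for binding beside evening-expressed genes of the chromosome arms.

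The peaks described here are those of RVE5-MYC chromatin immunoprecipitation (ChIP) with a summit in 1 of 5 windows of the TAIR10 assembly. The windows were set by position alone, from 12 to 18 Mb on chromosome 1, 0 to 6.5 Mb on chromosome 2, 11 to 16.5 Mb on chromosome 3, 1.5 to 5.5 Mb on chromosome 4, and 9.5 to 15 Mb on chromosome 5. They held 146 of the 2367 peaks of the 3 ChIP lists, and these merged into 105 of 1674 regions. Replicate 1 had 41 of its 676 peaks there, replicate 2 had 52 of 827, and replicate 3 had 53 of 864.

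All samples were seedlings of an RVE5-MYC overexpression genotype, 14 days old. They had grown at 22 °C in long days of 16 h light and 8 h dark, were then kept at 29 °C for 12 h, and were collected at zeitgeber time 12 h. The series has 3 ChIP samples made with an antibody against MYC and 1 input DNA sample without antibody. No label names the promoter of the transgene, the number of lines or the source of the 3 replicates, so the spread between them may be technical. The samples include no seedlings without the tag, so recurring signal of the antibody cannot be told apart from RVE5-MYC binding. No list of the input was used here.

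The windows were protein-coding-gene-poor and pseudogene-rich, which goes with their label. They covered 23.1% of the assembly, held 9.70% of the protein-coding genes of the RefSeq table (2662 of 27432), and held 73.9% of its pseudogenes (3578 of 4843). Protein-coding genes stood at 96.8 per Mb in the windows and 271 per Mb on the arms. The windows are not uniform. That of chromosome 2 takes in the whole short arm, with the end of the chromosome, and stretches of 500 kb in the 5 windows held between 2 and 118 protein-coding genes. None of the 21 genes of a core clock list (CCA1, LHY, TOC1, GI and RVE5 among them) lies in a window.

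Peaks of very high pileup all lay near rRNA genes, though none of their regions overlapped one. The pileup is the height of the stacked reads at the summit of a peak. Above 500 it was reached by 14 of all 2367 peaks (0.591%), all of which lay in the windows: 5 in replicate 1, 4 in replicate 2 and 5 in replicate 3. They made up 5 regions, and all 5 lay within 5000 bp of an annotated rRNA gene. The RefSeq table lists 4 such genes on the nuclear chromosomes, at these places on chromosomes 2 and 3, and no other region lay within 5000 bp of them. The threshold fell in an empty range. The highest pileup below it was 157, in replicates 2 and 3 at a region of chromosome 4, and the lowest above it was 595.

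On chromosome 2 the rDNA regions stood at the very end of the assembly. The first, from 3369 to 3596, lay within 500 bp of the rRNA gene AT2G01010 and had pileups of 1251, 1384 and 1346 in replicates 1, 2 and 3. Its fold over the local background was 2.76, 2.87 and 2.61. The second, from 9855 to 10102, lay in the non-coding RNA gene AT2G00340, within 5000 bp of an rRNA gene, with pileups of 2872, 3234 and 3183. Its fold was only 1.53, 1.61 and 1.53, the lowest of all peaks in each of the 3 lists.

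On chromosome 3 the rDNA regions lay near the middle of the window. The region from 14196528 to 14197077 overlapped MIR5642a, a miRNA gene, and AT3G41762, and lay within 1000 bp of the rRNA gene AT3G41768. Its pileups were 658, 715 and 714 and its folds 2.97, 3.10 and 2.93. The region from 14197284 to 14197505, within 500 bp of the same rRNA gene, was listed in replicates 1 and 3, with pileups of 595 and 671 and folds of 2.07 and 2.12. Replicate 2 listed no peak there. The third, from 14201436 to 14201778 in the non-coding RNA gene AT3G06365, had pileups of 2594, 3123 and 3118 and folds of 1.54, 1.77 and 1.68.

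The rDNA peaks recurred almost to the base. Summits of the 3 lists differed by 0 or 1 bp at the 3 regions with peaks in all lists other than the first of chromosome 2, where they differed by 96 bp. The 2 regions of highest pileup had the 2 lowest folds of every list, yet the p-value of all 4 shared rDNA regions ranked among the first 4 of each list. The pileup divided by the fold, a measure of the local background that the peak caller used, was 222 to 2087 over the 14 peaks, against 8.50 to 24.6 over the 2221 peaks of the arms. Reads that can be placed on several copies of a repeat bear on such values. No source used here gives their treatment, and their part in these peaks was not tested.

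**Figure D1:**
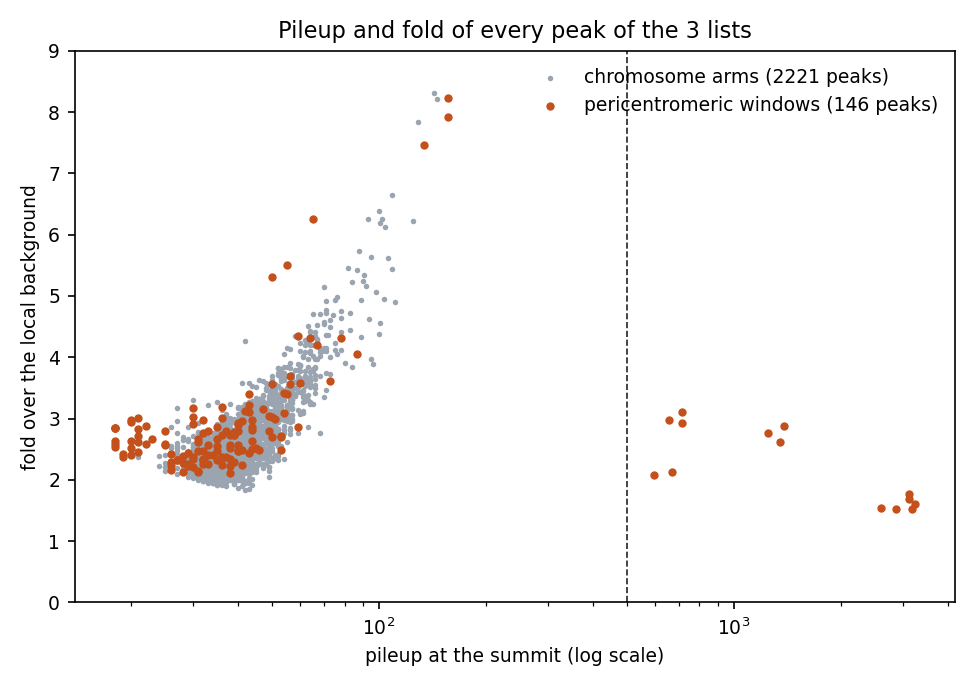
Pileup at the summit (horizontal, log scale) against the fold over the local background (vertical) for every peak of the 3 lists, with the 2221 peaks of the arms in grey and the 146 peaks of the windows in orange; the dashed line marks a pileup of 500. The 14 peaks to the right of the line have folds of 1.53 to 3.10, the 6 orange points above a fold of 5 belong to regions on chromosomes 4 and 5, and a group of orange points stands at pileups of 25 or less.

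Apart from rDNA, the 3 regions of highest mean fold in the windows had their centres more than 2000 bp from any protein-coding gene. A fold of at least 5 was rare, with 1.18% of all peaks. The windows held 2 of 9 such peaks in replicate 1, 2 of 8 in replicate 2 and 2 of 11 in replicate 3, and the same 2 regions gave them in every list. The region on chromosome 4 from 3056496 to 3057012 had folds of 7.47, 8.23 and 7.92 in replicates 1, 2 and 3, and ranked at place 2 by fold in each list. Its pileups were 134, 157 and 157, its peaks were 489, 500 and 504 bp wide, and its 3 summits fell within 5 bp. Its centre was more than 10000 bp from AT4G06479, the nearest protein-coding gene, and a non-coding RNA gene, AT4G05175, lay within 1000 bp. Its local background, as pileup over fold, was 18.9 ± 0.944 (SD, n = 3), inside the range of the arms.

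A pair of regions on chromosome 5 was separated by 1384 bp. The region from 11187255 to 11187553 had folds of 5.32, 5.51 and 6.26, with pileups of only 50, 55 and 65. The region from 11185547 to 11185870 had similar pileups, 59, 64 and 56, and folds of 4.35, 4.31 and 3.57. In all lists the higher fold belonged to the former region, whose pileup over fold was lower, 9.92 ± 0.492 against 14.7 ± 1.07 (SD, n = 3). Both had AT5G29560 as the nearest protein-coding gene, more than 2000 bp away, and their summits fell within 5 and 10 bp. By mean fold these 3 regions were the highest of the 16 regions of the windows with a peak in all lists, at places 2, 6 and 29 among all 199 such regions of the genome.

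Of the 12 shared regions without rDNA, 8 (66.7%) lay inside a protein-coding gene or within 1000 bp beside one. On the arms 155 of 183 shared regions (84.7%) did, with centres in another annotated gene left out of the 155. By mean fold the 2 strongest of the 8 stood in stretches of 500 kb with 49 and 67 protein-coding genes. The region of DFL2, a GH3-family gene that acts in light-dependent hypocotyl growth, ran from 1499962 to 1500689 on chromosome 4. Its folds were 4.31, 3.60 and 4.06 and its pileups 78, 73 and 87. These pileups were above those of both regions of the chromosome 5 pair. Its mean fold of 3.99 ± 0.359 was close to the 4.08 ± 0.439 of the pair's region of lower fold (SD, n = 3). The DFL2 region crosses the edge of its window, and its summit in replicate 1 was 312 bp inside. The region beside PHS1, a plastid starch phosphorylase gene, ran from 11252493 to 11252839 on chromosome 3 and had folds of 3.69, 3.41 and 4.21, with pileups of 56, 55 and 67.

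The other gene regions had mean folds near or below the median of 3.00 over the 183 shared regions of the arms. They stood at places 98 to 159 among all 199 shared regions. At UBQ10, a polyubiquitin gene, folds were 3.12, 2.74 and 3.16, and the region from 2717518 to 2718737 on chromosome 4 was the widest of the 16, with a peak of 1220 bp in replicate 1 and of 231 and 316 bp in replicates 2 and 3 (in replicate 3 the stronger of 2 peaks). A second peak of replicate 2, which began at 2718739, adjoined it without overlap and was counted as a region of 1 list. At AGL44, a MADS-box gene of the root response to nitrate, folds were 3.10, 3.02 and 2.69, and the peaks lay within 500 bp beside the gene. The remaining 4 were AT4G05150 (mean fold 2.74 ± 0.249), CCB3, a gene for the assembly of the cytochrome b6f complex (2.69 ± 0.106), IDD5, a zinc finger factor (2.69 ± 0.185), and EPF2, a peptide that limits stomatal number (2.59 ± 0.198; each SD, n = 3). The 4 means differed by less than the SD of IDD5 alone.

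A last shared region lay near a REVEILLE gene. It ran from 14755469 to 14755839 on chromosome 5, with AT5G37270 as the nearest protein-coding gene and folds of 3.57, 3.04 and 2.48. Its SD of 0.545 was the largest of the 16. RVE2, a relative of RVE5, lay within 5000 bp of it and was named after its values were seen. Replicate 3 alone had a further peak within 500 bp of RVE2, from 14753141 to 14753429, with a pileup of 53 and a fold of 2.72.

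**Figure D2:**
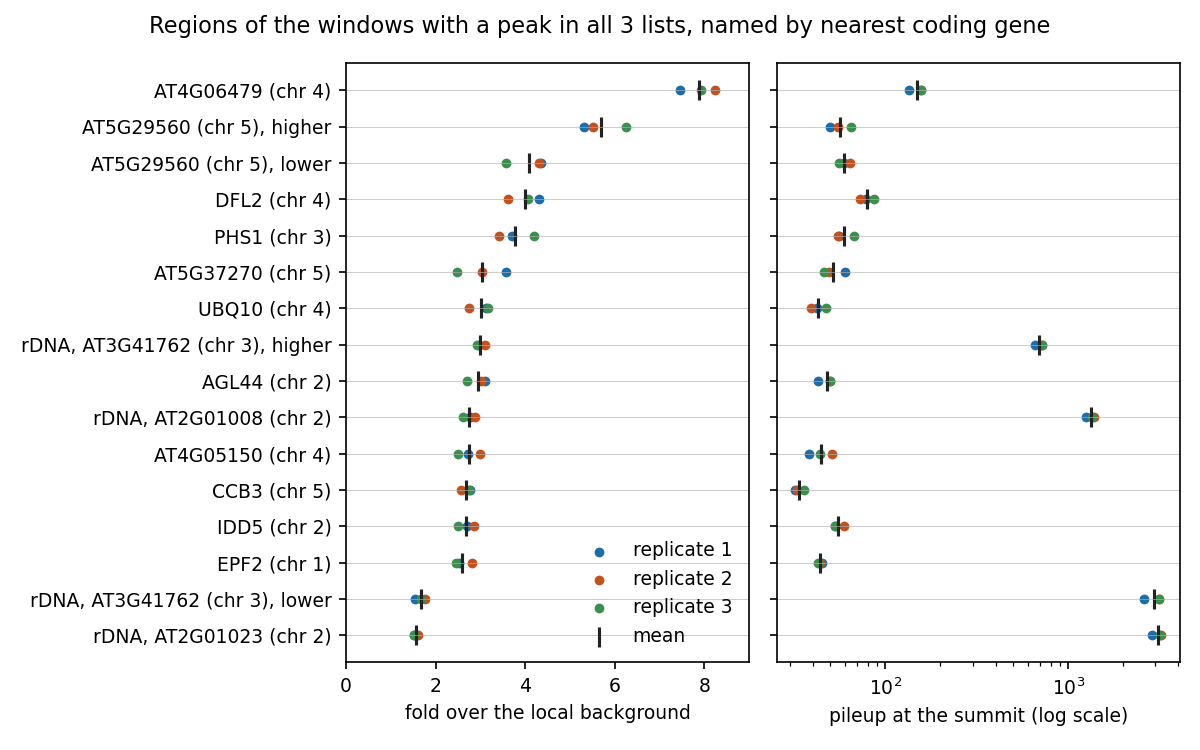
Fold over the local background (left) and pileup at the summit (right, log scale) for the 16 regions of the windows with a peak in all 3 lists, ordered by mean fold and named by the nearest protein-coding gene; points are replicates, bars are means, rDNA marks regions with an rRNA gene within 5000 bp, and of 2 regions of 1 gene the one of higher fold is marked higher. The region nearest to AT4G06479 leads with folds of 7.47 to 8.23, and the 2 regions with the highest pileups stand last by fold.

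In all, 16 of the 105 regions (15.2%, exact 95% binomial interval 8.97 to 23.6%) had a peak in all 3 lists, against 11.9% of all 1674 regions and 11.7% of the 1569 on the arms. Without the 5 rDNA regions the share was 12 of 100 (12.0%, 6.36 to 20.02%), which is near the background. The intervals cover counting error only. Regions in exactly 2 lists were 8 of 105 (7.62%, 3.35 to 14.5%), against 17.2% of all regions and 17.8% of those on the arms. The remaining 81 regions (77.1%, 67.9 to 84.8%) were in 1 list, against 70.9% of all regions and 70.5% of those on the arms. Of the 81, 20 came from replicate 1, 31 from replicate 2 and 30 from replicate 3. Regions are not replicates, so no test is given. Among the 50% of peaks with the best p-value in each list, 15 of 42 regions of the windows (35.7%) and 125 of 717 of the arms (17.4%) were in all lists. The 42 included the rDNA regions, and the share was not computed without them. With 1 list left out the shares stood side by side, at 22.1% and 22.2% without replicate 1, 25.7% and 22.4% without replicate 2, and 24.0% and 24.3% without replicate 3.

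The 8 regions of 2 lists all lay inside or within 1000 bp beside a protein-coding gene, as did 238 of 280 such regions of the arms (85.0%). Centres in another annotated gene were not counted in the 238. A centre inside the gene was found at UBQ11, a second polyubiquitin gene, with folds of 3.40 and 3.56 in replicates 1 and 2 and no peak in replicate 3. The others lay within 1000 bp of a gene, one of them the rDNA region beside AT3G41762. Beside GID1C, a gibberellin receptor gene, the folds were 2.56 and 2.57 in replicates 2 and 3. Beside MSRB5, for a methionine sulfoxide reductase, they were 2.48 and 2.36 in the same replicates.

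Peaks were sparser in the windows than on the arms in each list. Replicates 1, 2 and 3 had 1.49, 1.89 and 1.93 peaks per Mb in the windows and 6.94, 8.47 and 8.87 on the arms. The windows thus stood at 0.218 times the arms, with an SD of 0.0284 on the log2 scale (n = 3), lower in 3 of 3 lists. The exact two-sided sign-flip permutation test of the 3 pairs gave p = 0.25, which is the smallest that 3 pairs allow. Each list had nearly the same share of its peaks in the windows, 6.16 ± 0.114% (SD, n = 3). The share of the arms' density ranged from 0.188 times on chromosome 3 to 0.282 times on chromosome 4, with 1.52 ± 0.278 and 2.67 ± 0.629 peaks per Mb in these windows (SD, n = 3).

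Per gene the gap was smaller. The lists had 1.54, 1.95 and 1.99 peaks per 100 protein-coding genes in the windows and 2.56, 3.13 and 3.27 on the arms, 0.611 times as many (lower in 3 of 3, exact permutation p = 0.25). The lengths count assembled bases, and how much of each window can be reached by uniquely placed reads was not tested.

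**Figure D3:**
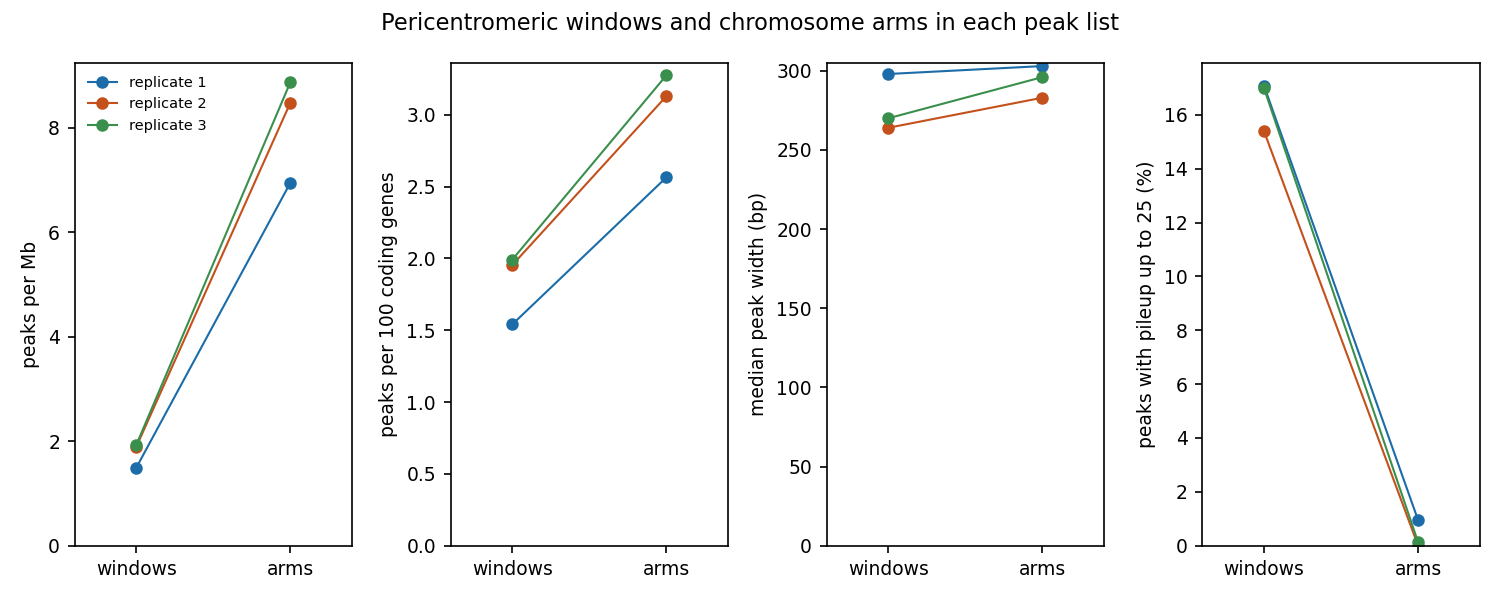
Values in the pericentromeric windows and on the arms for each list, joined by a line per replicate: peaks per Mb, peaks per 100 protein-coding genes, median peak width in bp, and the percentage of peaks with a pileup of 25 or less. All 3 lists move the same way in each panel, with 1.49 to 1.93 peaks per Mb in the windows against 6.94 to 8.87 on the arms.

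The median pileup was 38, 35.5 and 38 in the windows and 38, 39 and 40 on the arms, equal in replicate 1 and lower in the others (ratio 0.953, exact permutation p = 0.5). Without the peaks above 500 it was 34, 35 and 37.5 in the windows, 0.910 times the arms and lower in 3 of 3 lists (exact permutation p = 0.25). It was also lower in 3 of 3 with windows narrowed by 0.5 Mb (0.889) and without chromosome 2 (0.931; exact permutation p = 0.25 for both). Among the 50% of peaks with the best p-value in each list the ratio turned to 1.10 (exact permutation p = 0.5), and without pileups above 500 as well it was 1.01 (exact permutation p = 1). The median width was 298, 264 and 270 bp against 303, 283 and 296 bp, a ratio of 0.942 (lower in 3 of 3, exact permutation p = 0.25). The median fold was slightly higher in the windows, 2.72, 2.65 and 2.61 against 2.58, 2.52 and 2.49, a ratio of 1.05 (higher in 3 of 3, exact permutation p = 0.25). The SD of this log2 ratio over the lists was 0.00449, and that of the width 0.0558. The middle 50% of the arm peaks had pileups of 35 to 45 and widths of 244 to 378 bp.

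Peaks of low pileup were also more frequent in the windows. The cut at 25 for the low end was chosen after the values were seen. Peaks with a pileup of 25 or less made up 1.31% of all peaks, 31 in number, and 24 of them lay in the windows. Per list they were 17.1%, 15.4% and 17.0% of the peaks of the windows and 0.945%, 0% and 0.123% of those of the arms (higher in 3 of 3, exact permutation p = 0.25). Each of the 24 was in 1 list only, and none had its summit inside a protein-coding gene. Of the summits 14 lay in another annotated gene, 1 of these within 500 bp of the protein-coding gene AT1G37010. The other 10 lay in no annotated gene and more than 1000 bp from a protein-coding one. The folds of the 24 peaks, 2.38 to 3.01, were ordinary. As the peaks were chosen for low pileup, their pileup over fold, 6.32 to 9.75, was bound to be low too. Over the windows, 19 peaks had a pileup over fold below that of every arm peak, and all 19 were in 1 list only.

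The location of the summits differed from the arms, and so does the annotation itself. Pseudogenes stood at 130 per Mb in the windows and 13.8 per Mb on the arms, and protein-coding genes at 96.8 and 271 per Mb. The share of bases in each location class was not computed, so no preference of the peaks can be read from the shares below. Summits in an annotated gene that is not protein-coding made up 24.4%, 17.3% and 20.8% of the peaks of the windows and 5.67%, 4.77% and 4.32% of those of the arms (higher in 3 of 3, exact permutation p = 0.25). Of these 30 peaks of the windows 16 lay in pseudogenes, and all 16 were in 1 list only, with pileups of 18 to 33. Summits in no annotated gene but within 1000 bp beside a protein-coding gene were fewer, 24.4%, 30.8% and 24.5% against 43.8%, 45.7% and 45.6%. A summit in another annotated gene was counted there even within 1000 bp of a protein-coding gene, so these shares leave such summits out. Summits inside a protein-coding gene made up 36.6%, 28.8% and 32.1%, against 40.2%, 38.5% and 39.3%. Those farther away made up 14.6%, 23.1% and 22.6%, against 10.4%, 11.1% and 10.7%. Each of these 3 classes moved the same way in 3 of 3 lists (exact permutation p = 0.25 for each). The mean differences, windows minus arms, were 15.9 percentage points for other annotated genes, -18.5 beside a gene, -6.81 inside a gene and 9.38 farther away. They shrank under some settings. Among the 50% of peaks with the best p-value they were 7.04 for other annotated genes and -8.82 beside a gene, and with windows widened by 0.5 Mb they were 4.78 farther away, -3.38 inside a gene and 11.4 for other annotated genes. Without pileups above 500, summits inside a gene were lower in only 2 of 3 lists (-3.20). Several rDNA peaks counted among the summits in other annotated genes. With pileups above 500 left out, that class made up 19.4%, 12.5% and 16.7% of the peaks of the windows. Its mean difference was then 11.3 points, higher in 3 of 3 lists.

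Within the windows the peaks followed the genes loosely. Over 55 stretches of 500 kb, Spearman's rho between the number of protein-coding genes and the number of peaks was 0.43, and 0.33, 0.33 and 0.36 in replicates 1, 2 and 3. This is a description, since neighbouring stretches share their surroundings and all come from the same libraries. In 16 stretches with fewer than 20 genes, a limit set after the data were seen, the lists had 1.04 ± 0.260 peaks per Mb, against 2.07 ± 0.242 in the other 39 (SD, n = 3). No list had a peak in 13 stretches, 7 of them gene-poor. The longest run without a peak was 1.80 Mb on chromosome 2, from 4220667 to 6018007, and then 1.75 Mb on chromosome 4, from 3502108 to 5252094.

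The gene-poor stretches had a lower median background and held the 3 regions of highest mean fold in the windows. Over peaks with a pileup up to 500, median pileup over fold there was 8.70, 8.77 and 8.49 in replicates 1, 2 and 3. In the other stretches it was 13.6, 14.1 and 14.8. The gene-poor medians rest on only 25 peaks over the 3 lists. The 3 regions of highest mean fold themselves had a mean pileup over fold of 18.9, 14.7 and 9.92, above the gene-poor medians. Of the 19 regions of the gene-poor stretches 16 were in 1 list and 3 (15.8%) in all lists. In the other stretches 65 of 81 regions with a pileup up to 500 were in 1 list and 9 (11.1%) in all lists, so the shares were close. The 3 found in all lists in gene-poor stretches were the region of chromosome 4 at AT4G06479 and the pair of chromosome 5 at AT5G29560.

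**Figure D4:**
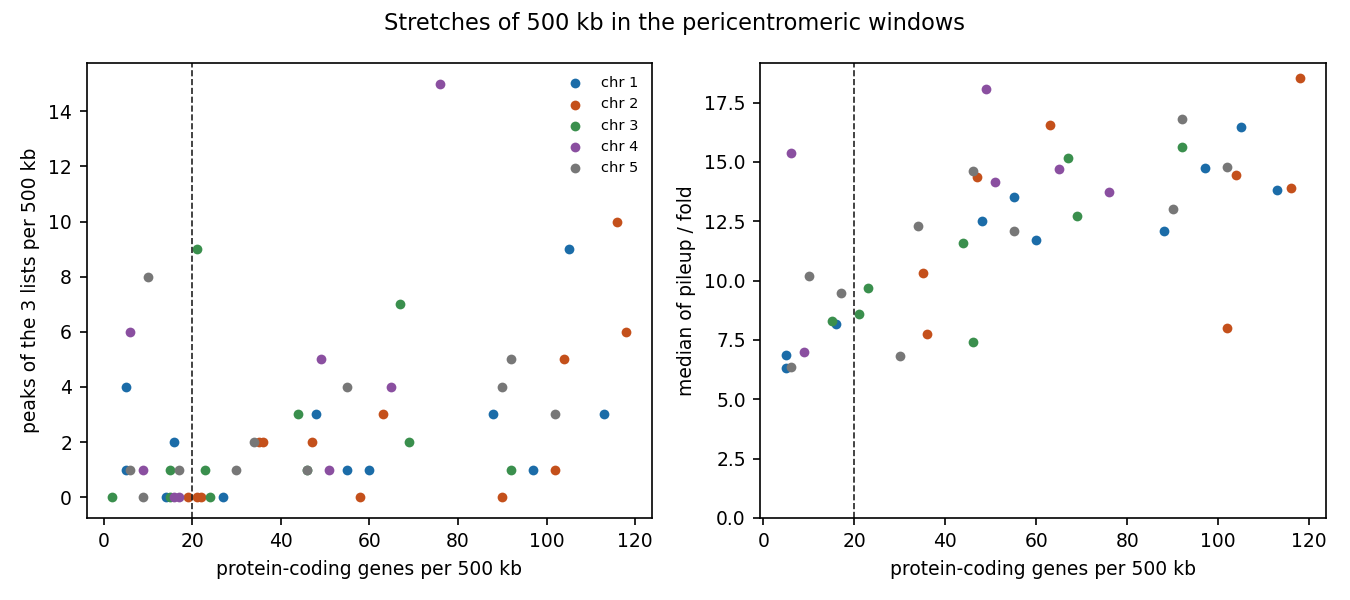
Stretches of 500 kb in the windows by their number of protein-coding genes (horizontal): the number of peaks of the 3 lists (left) and the median pileup over fold of peaks with a pileup up to 500 (right, stretches with such a peak), coloured by chromosome, with a dashed line at 20 genes. Left of the line the highest median of pileup over fold, 15.4, belongs to the chromosome 4 stretch with the region nearest to AT4G06479. Over all 55 stretches 13 have no peak, 7 of them left of the line.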

How the data were processed

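ChIP peaks were listed for 3 replicates of RVE5-MYC seedlings. Per the submitters' processing notes, CASAVA 1.4 and the build TAIR10 were used. Not given in the sources used here are the aligner, the caller with its threshold, and the use of the input. The deposited lists, 1 per replicate and not pooled, give peak positions in bp, the pileup as a signal at the summit, the fold over a local background, and the −log10 of p- and q-values, all per the file headers. These are the authors' values for each peak within its list. Library totals are unknown, so the depth is known only as pileup, with a median near 39.

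Peaks were assigned by summit, and peaks sharing at least 1 bp were merged into regions. The last peak end served as chromosome end. Pileup was divided by fold to describe the local background, a measure added after the data were seen. Windows and arms were compared within each list by log2 ratios or differences in percentage points, with an exact two-sided sign-flip permutation test over 3 replicates. Genes came from RefSeq on TAIR10.1, for names and neighbours only, so distances are given as limits; the table gives no strand. Planned sequence features were left out for want of a genome, and no sequences are shown. Regions named are those in all 3 lists, those with a pileup above 500, and 2 given in advance, with the gene at or nearest to the centre; others were named after their values were seen. The members and lists were chosen with earlier results of these data known. Functions were tested on simulated data. Python 3.11.15, numpy 2.4.6, pandas 2.3.3 and scipy 1.17.1 were used.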

Additional observations from a re-analysis of the deposited data

How the results depend on the processing

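Of 94 alternatives 87 kept the direction, or for counts and shares the size, of the value. Windows moved by 0.5 Mb at each edge, pileups above 500 left out, the best 50% of each list by p-value, each replicate left out, chromosome 2 left out, and the last gene end or genes as denominator gave density ratios of 0.197 to 0.611, all below 1. With the best 50% by p-value the median pileup turned to 1.10 times the arms and the median of pileup over fold to 1.02 times. With pileups above 500 left out as well, an alternative added after the data were seen, they were 1.01 and 0.953 times. The cause was not tested. With the best 50% by p-value alone the share of regions in all lists was 35.7% in the windows and 17.4% on the arms. This share included the rDNA regions and was not computed without them. Counted over peaks in place of regions the share was 34.0% against 25.2%, and without pileups above 500 it was 28.5% against 25.2%. Leaving out 1 replicate gave shares of 22.1% to 25.7%, as a peak in 2 lists was then enough, against 22.2% to 24.3% on the arms, and without replicate 1 or 3 the windows lay slightly below the arms. Differences in location class kept their sign but moved, in part by more than 1.5 times, with ranges of 7.04 to 21.4 points for other annotated genes, -27.2 to -8.82 beside a gene, -9.11 to -3.20 inside a gene and 4.78 to 13.0 farther away. Peaks above 500 and above 200 were the same 14, and limits of 500 and 2000 bp left 11 shared regions near genes. Between ChIP and input, no paired analysis was possible because the input had no list. Windows and arms were paired within each list. With 3 pairs p cannot go below 0.25, and with depth known only as pileup a missing peak does not show that signal was absent.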

Other observations

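Near misses between lists were few. On chromosome 1, replicate 3 had a peak from 14998091 to 14998360 and replicate 2 one from 14998548 to 14998809, 187 bp apart, with pileups of 22 and 18. A second pair on the same chromosome, from 14888640 to 14889000 in replicate 3 and from 14890176 to 14890469 in replicate 2, was 1175 bp apart, with pileups of 18 and 20. Replicate 1 had no peak in the 500 kb that hold both pairs. Across the windows 4 neighbouring pairs of single-list peaks lay within 2000 bp of each other, 1 of them with both peaks in replicate 3.

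In the windows 28 single-list peaks had their summit inside a protein-coding gene. Those named here were picked for the known roles of their genes, after their values were seen. The sodium transporter gene SOS1 had a fold of 2.12 in replicate 2. That peak was among the weakest of its list, at place 749 by fold and 808 by p-value of 827 peaks. The bZIP factor gene VIP1 had a fold of 2.48 in replicate 1, at place 405 by fold and 485 by p-value of 676 peaks.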
